A study of Mus musculus with 18 samples.

Results

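The genes described here act in mitosis, from the decision to enter it to the final separation of the daughter cells. They are a list of 39 genes chosen by name. Where several probe sets named a gene alone, the brightest on average over the 18 arrays stood for it. Values were obtained for 38 of the 39 among 19938 genes, and Ccnb1, a mitotic cyclin, was not analysed here because no single-gene probe set was matched to it. The question addressed is how these genes stood in 2 mouse mammary cell lines, in the fractions sorted from their co-cultures, and between cultures that carry the same replicate number.

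Comma-D cells are epithelial cells derived from the normal mouse mammary gland, labelled normal and negative for erbB2 and its phosphorylated form. MMTV-neu cells carry the neu oncogene, a form of erbB2, under the promoter of the mouse mammary tumour virus, and they are labelled cancer, erbB2-positive and positive for phosphorylated erbB2. The lines were co-cultured at 1:50 or 1:1 and, after binding of an antibody to erbB2, divided on a magnetic column into an erbB2-positive and an erbB2-negative fraction. Both negative fractions are labelled normal, the 1:50 positive fraction is labelled redirected, with erbB2 present but its phosphorylated form absent, and the 1:1 positive fraction is labelled cancer, with both forms present. There were 3 arrays in each of the 6 groups. Comma-D and all co-cultures were grown in one medium and MMTV-neu in another, so line and medium cannot be told apart in a comparison with MMTV-neu, and the labels do not say which line made up the 50 parts of a 1:50 co-culture. Nothing in the labels states that replicates were separate cultures, so p-values measure the spread between these samples, which may be technical.

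Cells enter mitosis when cyclin-bound Cdk1 becomes active, after which the chromosomes condense, attach to the spindle through their kinetochores and are held by the spindle checkpoint until all are attached. The anaphase-promoting complex then destroys the mitotic cyclins and the cell divides. Most of these genes are transcribed late in the cell cycle, so in a mixed population their RNA is commonly read as a measure of how many cells are cycling. In bulk RNA, fewer cycling cells and less RNA per cycling cell cannot be told apart.

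The promoters are shown first because the members moved together across the co-culture arrays, as the values below give. Late cell cycle promoters are known for a short element, TTTGAA, bound by the MuvB complex, and for CCAAT boxes bound by NF-Y. RefSeq promoter windows (build GRCm38.p6, from 250 bases before to 50 after the start) were matched for 31 of the 38 members, which have 33 windows. TTTGAA, read on either strand and so also searched as its reverse complement TTCAAA, was present in 26 of these 33 windows (78.8%), against 17.9% of all 32851 windows of the same length. CCAAT, with ATTGG for the opposite strand, was present in 25 (75.8%), against 37.4% of all windows, and both motifs in 23 (69.7%), against 6.95%. Matches of the 2 motifs overlapped in 1 member, Cdca8, by 1 base, and a match is a description of these letters and not a binding site. In 6 members TTTGAA lay within the 50 bases before the start, and the 120 bases before the start are printed below for the 5 of these with a single listed start, with both motifs in capitals and each sequence running 5′ to 3′ in the direction of the gene.
Cdc20, chr4:118437344-118437463, minus strand: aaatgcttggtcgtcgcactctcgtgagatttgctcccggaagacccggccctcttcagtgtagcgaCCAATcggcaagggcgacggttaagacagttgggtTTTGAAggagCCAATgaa
Cdk1, chr10:69352913-69353032, minus strand: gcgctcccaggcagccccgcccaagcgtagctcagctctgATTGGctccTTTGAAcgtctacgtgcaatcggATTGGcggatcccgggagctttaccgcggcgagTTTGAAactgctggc
Kif11, chr19:37376262-37376381, plus strand: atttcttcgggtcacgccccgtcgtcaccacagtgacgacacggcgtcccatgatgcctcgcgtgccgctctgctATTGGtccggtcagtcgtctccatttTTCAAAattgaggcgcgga
Top2a, chr11:99024190-99024309, minus strand: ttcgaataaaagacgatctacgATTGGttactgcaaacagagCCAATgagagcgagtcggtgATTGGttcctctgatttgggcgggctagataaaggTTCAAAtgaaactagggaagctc
Ube2c, chr2:164769809-164769928, plus strand: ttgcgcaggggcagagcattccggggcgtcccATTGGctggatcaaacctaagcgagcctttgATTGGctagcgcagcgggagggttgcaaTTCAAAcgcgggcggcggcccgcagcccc
Cdk1 carries TTTGAA on the strand of the gene at 2 places and Cdc20 at 1, while in Kif11, Top2a and Ube2c it lies on the opposite strand. Cdk1 is the kinase that drives entry, Cdc20 activates the anaphase-promoting complex, Ube2c is a ubiquitin-conjugating enzyme of that complex, Kif11 is the kinesin that pushes the spindle poles apart and Top2a untangles chromosomes.

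The groups differed in how widely the deposited values were spread, which bears on every level given here. The standard deviation over all genes was 1.85 to 1.88 log2 units on the Comma-D arrays and 1.26 to 1.28 on the MMTV-neu arrays. It was 1.86 to 1.87 in the 1:50 and 1.49 to 1.74 in the 1:1 erbB2-negative fraction, and 1.64 to 1.82 and 1.32 to 1.42 in the corresponding erbB2-positive fractions. Results are therefore given on the deposited scale and beside it after quantile normalization, which gives all arrays the same distribution, and after centring on 9 reference genes. Those reference genes were themselves 1.42 log2 units lower on average in MMTV-neu than in Comma-D, so centred values carry that difference. Epithelial marker lists also differed between the groups: the mean level of 14 basal and myoepithelial markers was 9.13 to 9.15 on the Comma-D, 7.23 to 7.41 on the MMTV-neu, 9.48 to 9.72 and 8.84 to 9.32 on the 1:50 and 1:1 erbB2-negative, and 9.14 to 9.72 and 7.99 to 8.43 on the 1:50 and 1:1 erbB2-positive arrays. For 10 leukocyte markers the mean level was 5.39 to 5.43 in Comma-D, 6.06 to 6.29 in MMTV-neu and 5.39 to 6.06 in the fractions. For 8 endothelial markers it was 5.36 to 5.38, 6.23 to 6.35 and 5.36 to 6.09 in that order. For 6 adipocyte markers it was 5.36 to 5.37, 6.11 to 6.21 and 5.29 to 6.12. For 13 luminal markers it was 7.65 to 7.79 in Comma-D, 7.98 to 8.04 in MMTV-neu and 7.79 to 8.14 in the fractions. An array has no true zero, so it was not settled whether any marker was absent.

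The mean level of the 38 mitosis genes separated the unmixed lines and, within the co-cultures, the replicate numbers. In Comma-D it was 7.65, 7.63 and 7.69 log2 units on arrays 1, 2 and 3, and in MMTV-neu 7.06, 6.93 and 6.97. The arrays of each line lay close together, with means of 7.66 ± 0.0309 and 6.99 ± 0.0624 (SD, n = 3), and the lines did not overlap. In the erbB2-negative fractions the mean was 7.58, 7.35 and 8.66 at 1:50 and 6.88, 7.55 and 8.29 at 1:1. In the erbB2-positive fractions it was 7.17, 7.15 and 8.24 at 1:50 and 6.87, 7.03 and 7.25 at 1:1. The array numbered 3 was the highest of its group in all 4 fractions, and in 3 of them it lay above every array of the unmixed lines. The standard deviation over replicates was 0.701 and 0.705 in the 1:50 and 1:1 negative and 0.622 and 0.189 in the 1:50 and 1:1 positive fractions, so the groups were ordered by mean as 1:50 negative, Comma-D, 1:1 negative, 1:50 positive, 1:1 positive and MMTV-neu, but no neighbours in that order differed beyond the spread of the wider of them.

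That order depended on the scaling. After quantile normalization the group means were 7.67 in the 1:50 negative, 7.56 in the 1:1 negative, 7.52 in Comma-D, 7.48 in the 1:50 positive, 7.10 in the 1:1 positive fraction and 6.96 in MMTV-neu. Centred on the reference genes they were 7.88 in MMTV-neu, 7.61 in the 1:1 positive, 7.46 in the 1:1 negative, 7.36 in the 1:50 negative, 7.23 in the 1:50 positive fraction and 7.12 in Comma-D, so MMTV-neu moved from lowest to highest. In the 1:50 fractions and the 1:1 negative fraction the array numbered 3 was the highest of its group under all 3 scalings. In the 1:1 positive fraction that rank was lost on centring, where array 3 was the lowest. The position above every array of the unmixed lines did not hold throughout. On centring, array 3 of the 1:1 negative (7.93) and of the 1:50 positive fraction (7.86) lay below MMTV-neu array 3 (7.98).

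**Figure D1:**
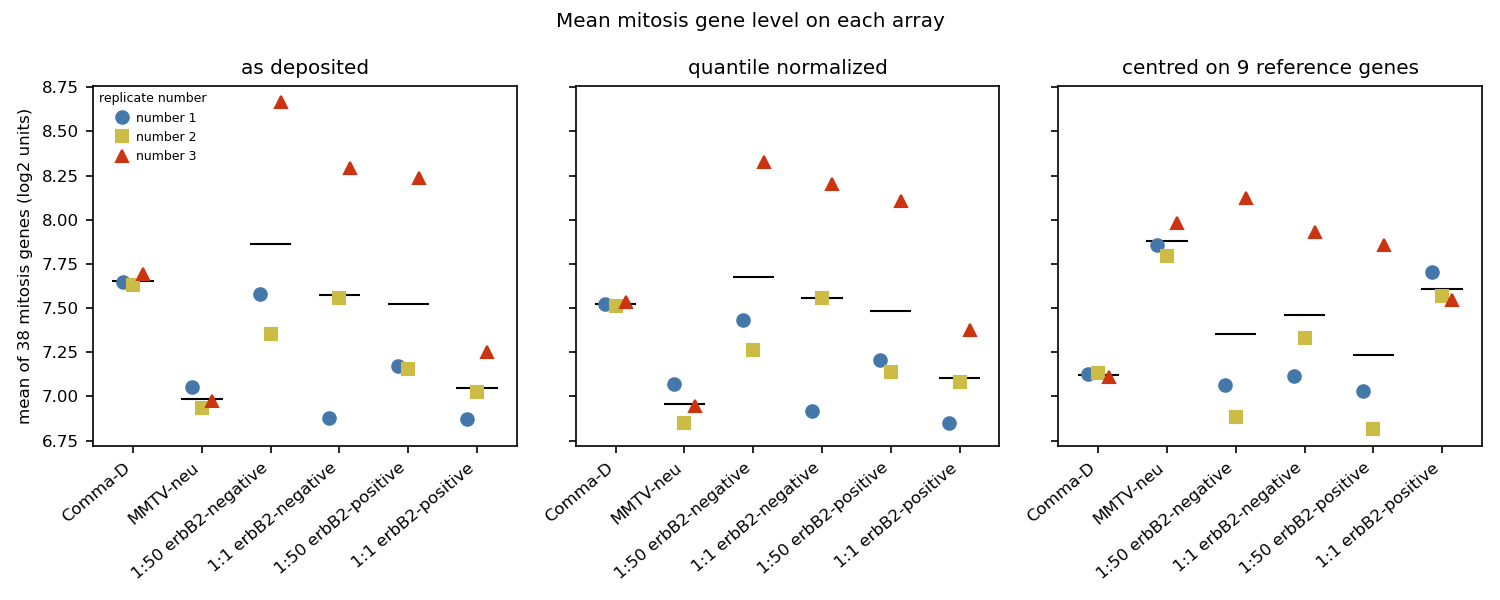
Mean level of the 38 mitosis genes (log2 units, vertical axis) on each of the 18 arrays by group, as deposited, after quantile normalization and centred on 9 reference genes; points are arrays, with colour and shape for the replicate number, and bars are group means. MMTV-neu lies lowest at 6.99 as deposited and highest at 7.88 when centred, while the array numbered 3 is the highest of the 1:50 fractions and of the 1:1 negative fraction in all 3 panels, and of the 1:1 positive fraction only in the first 2.

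The lines were compared to set the baseline for the co-cultures. As deposited, 11 of the 38 mitosis genes were lower and 2 higher in MMTV-neu at an adjusted p under 0.05 (limma, Benjamini-Hochberg over all genes), where 86.8% of all genes passed, 56.4% as higher and 30.4% as lower. For 25 members all MMTV-neu arrays lay below all Comma-D arrays and for 3 they lay above, where the arrays of 87.2% of all genes did not overlap. The median difference of the members was -0.54, against 0.40 over all genes. In this fit, which estimates the spread of a gene from all 6 groups, the 11 of 38 members called lower were a share close to the 30.4% of all genes. Members were called less often there than all genes. The share depended on the fit: with these 2 lines fitted alone, 23 members were lower and 2 higher. In that fit 85.3% of all genes passed, 6092 of 19938 as lower. The largest member falls were those of Mad2l1, a spindle checkpoint protein that restrains Cdc20, and Ccna2, the cyclin of DNA synthesis and mitotic entry. Of the 6 cytokinesis genes 4 fell, of the 4 checkpoint genes 2, of the 6 spindle genes 2, and of the 3 genes of mitotic exit none passed.

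Mad2l1 (probe set 10538832) stood at 9.22, 9.21 and 9.15 log2 units in Comma-D and at 5.83, 5.24 and 4.81 in MMTV-neu. Every MMTV-neu array lay far below every Comma-D array, and Mad2l1 fell by 3.90 (SE 0.58, limma adjusted p = 9.25e-06, n = 3 and 3). The values analysed carry no detection call, so whether this probe set was above background in MMTV-neu is not known and no fold is given. Ccna2 stood at 10.00, 9.92 and 9.96 in Comma-D and at 6.99, 6.96 and 7.07 in MMTV-neu, and it fell by 2.95 (SE 0.53, adjusted p = 6.1e-05). Its 3 MMTV-neu arrays were nearly alike, so the separation of the lines was wide beside the spread within either.

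Anln, anillin, which organises the cleavage furrow, stood at 8.94, 8.88 and 9.07 in Comma-D and at 7.11, 6.47 and 6.59 in MMTV-neu, a fall of 2.24 (SE 0.49, adjusted p = 0.000441). Mki67, the chromosome surface protein stained as Ki-67 to mark cycling cells, stood at 9.06, 9.15 and 9.20 and at 7.46, 6.86 and 7.25, and fell by 1.95 (SE 0.48, adjusted p = 0.0012). Neither gene's arrays overlapped between the lines. Ect2, Prc1 and Kif20a of cytokinesis, Tpx2, the activator of the Aurora A kinase, the checkpoint kinase Bub1, and the spindle proteins Kif11 and Nusap1 also fell, by 1.03 to 1.57.

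Plk1, the polo-like kinase that promotes mitotic entry and spindle assembly, moved the other way. It stood at 8.48, 8.46 and 8.13 in Comma-D and at 9.23, 8.89 and 9.14 in MMTV-neu, a rise of 0.72 (SE 0.29, adjusted p = 0.0281). Ndc80, which anchors microtubules at the kinetochore, stood at 5.98, 5.98 and 6.00 and at 6.71, 6.51 and 7.09, a rise of 0.79 (SE 0.22, adjusted p = 0.00296). All MMTV-neu arrays lay above all Comma-D arrays for both. Ndc80 was a low-level gene, averaging 5.98 in Comma-D and 6.77 in MMTV-neu, where the array medians averaged 6.35 and 6.78. Over all genes in the second lowest quartile of mean level the median difference was 0.92. Of the members 5 averaged below the array median in Comma-D and 21 in MMTV-neu. Cdk1 differed by -0.68 (95% interval -1.53 to 0.17, adjusted p = 0.122), Aurkb, the kinase of the chromosomal passenger complex, by -0.35 (adjusted p = 0.309), Cdc20 by 0.21 (adjusted p = 0.558) and Foxm1, a transcription factor of late cell cycle genes, by 0.29 (adjusted p = 0.247), none of which passed.

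Of these 13 calls, 4 kept their direction and passed under all 3 scalings: Mad2l1, Ccna2 and Anln as lower and Plk1 as higher. Mad2l1 differed by -2.48 centred and by -3.82 after quantile normalization, and Plk1 by 2.15 and 1.73. Centring, which shifts every gene of an array alike, gave 25 members higher and 3 lower with a median of 0.88 (91% of all genes called), while quantile normalization gave 2 higher and 16 lower with a median of -0.47 (67% of all genes called). Of the calls over all genes, 65% were higher on the deposited scale, 89.9% when centred and 59.3% with quantiles made equal, and the median over all genes was 0.40, 1.82 and 0.115. The difference also moved with the level of a gene: in the highest quartile of mean level the median over all genes was -1.08 and over the 13 members there -0.68, in the third quartile -0.01 and -0.23 (17 members), and in the second 0.92 and -0.14 (8 members). The part of array spread, level and medium in these differences was not tested. Beside them, 11 of 14 basal and myoepithelial markers were lower and 2 higher, and 9 of 10 leukocyte markers were higher and 1 lower.

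**Figure D2:**
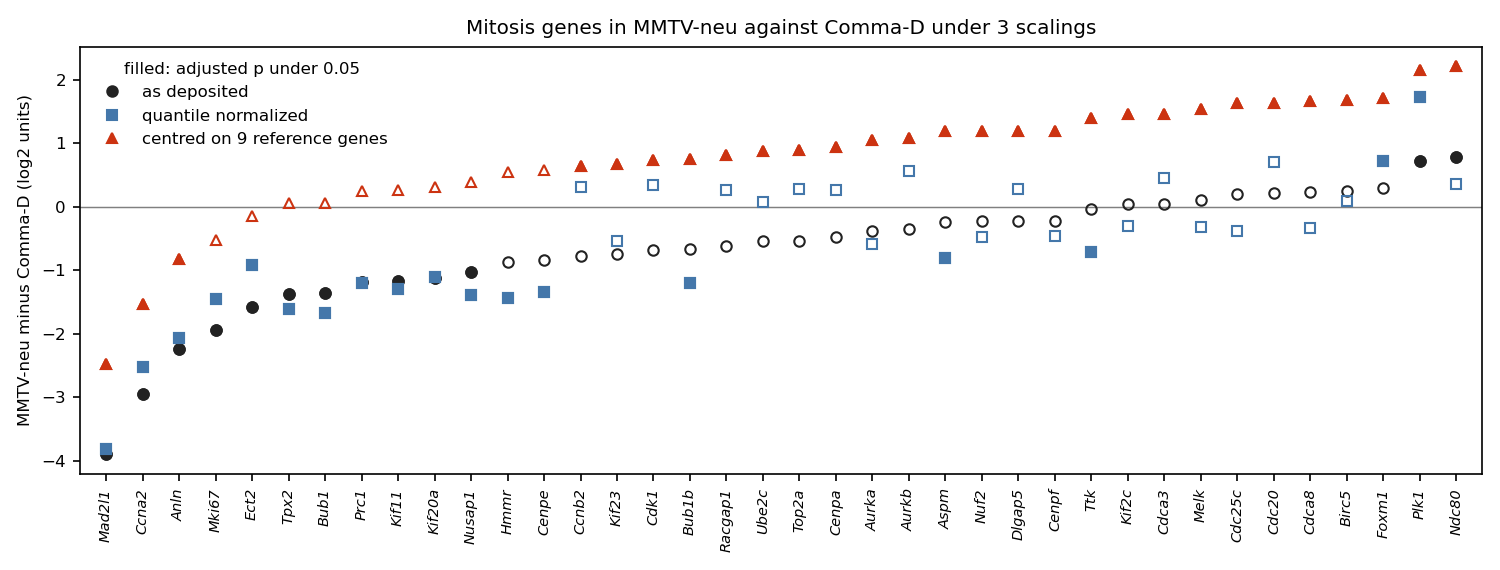
Difference in level of each mitosis gene, MMTV-neu minus Comma-D (log2 units, vertical axis), under 3 scalings, with genes ordered by the deposited difference and filled symbols for an adjusted p under 0.05. Mad2l1, Ccna2 and Anln lie below 0 and Plk1 above 0 with filled symbols in every scaling, and most other genes lie above 0 when centred, at a median of 0.88, against -0.54 as deposited.

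Lists of other cell cycle genes held both falls and rises between the lines, as genes at large did. Of all genes 86.8% passed there, 56.4% as higher and 30.4% as lower. Of 61 other mitosis genes 15 fell and 7 rose; Zwint, a kinetochore protein, fell by 3.93 and the condensin subunit Smc4 fell by 2.45, while Depdc1b rose by 1.22. Of 38 DNA replication genes 11 fell and 9 rose; Pcna, the sliding clamp of the polymerases, fell by 3.19, Rrm1, a ribonucleotide reductase subunit, fell by 1.97, and the thymidine kinase Tk1 rose by 0.87. Of 22 genes of G1 and the E2F pathway 10 fell and 5 rose, in which the D-type cyclin Ccnd2 fell by 3.07 and Ccnd1 fell by 1.95, while Mybl2, a partner of MuvB, rose by 2.42 and E2f2 by 1.75. Of 16 CDK inhibitors and p53 targets 10 fell and 4 rose, in which Btg2 fell by 3.93, Ccng1 fell by 3.27, Mdm2 fell by 2.81, Cdkn1c rose by 1.35 and Cdkn2a rose by 0.44. The helicase subunit Mcm2 fell by 0.60 (adjusted p = 0.0318). These are deposited values tested with limma as above. Centring adds 1.42 to each difference, so every gene that fell by less than that turns sign. After quantile normalization the mean of the other mitosis genes was 7.12 to 7.18 in Comma-D and 6.65 to 6.72 in MMTV-neu. For DNA replication it was 7.39 to 7.44 and 7.27 to 7.31, and for G1 and E2F 8.06 to 8.07 and 7.96 to 8.05. For CDK inhibitors and p53 targets it was 8.33 to 8.34 and 7.95 to 8.04. Quantile-normalized tests of single genes of these lists are not given here.

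The widest differences among the co-culture arrays followed the replicate number. The array numbered 3 gave the highest of the 3 values for 38 of 38 mitosis genes in the 1:50 erbB2-negative, the 1:1 erbB2-negative and the 1:50 erbB2-positive fraction, and for 30 of 38 in the 1:1 erbB2-positive fraction. Over all genes that array was the highest for 34.9%, 29.9%, 19.4% and 24.5%. The median of array 3 minus the mean of arrays 1 and 2 was 1.23, 1.06, 1.15 and 0.25 log2 units in that order for the mitosis genes, and between -0.07 and 0.00 for all genes. In the unmixed lines no such pattern was present: array 3 was the highest for 18 of 38 in Comma-D (median 0.05) and 9 of 38 in MMTV-neu (median -0.04).

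Bub1, the checkpoint kinase, had the widest step of the members in both negative fractions. It stood at 7.22, 6.95 and 9.03 on arrays 1, 2 and 3 of the 1:50 negative fraction, at 6.13, 7.14 and 8.43 in the 1:1 negative, at 6.60, 6.81 and 8.19 in the 1:50 positive and at 5.90, 6.16 and 6.55 in the 1:1 positive fraction. Array 3 was above the other arrays in each group, by 1.94, 1.80, 1.49 and 0.52 over the mean of arrays 1 and 2. Mki67 stood at 9.0, 8.67 and 10.05, at 7.35, 8.93 and 9.49, at 8.31, 8.57 and 9.84 and at 6.93, 7.76 and 8.04 in the same groups. Its arrays numbered 3 were again the highest of each fraction, and those of 3 fractions lay above all Comma-D arrays, which ended at 9.20.

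Cdk1 stood at 9.07, 8.61 and 9.99 in the 1:50 negative, at 8.0, 8.97 and 9.78 in the 1:1 negative, at 8.60, 8.32 and 9.64 in the 1:50 positive and at 7.71, 8.08 and 8.48 in the 1:1 positive fraction. In the first 3 of these fractions the array numbered 3 exceeded the Comma-D maximum of 9.19, and in the 1:1 positive fraction no array reached it. Ndc80 had the smallest step in the 1:50 positive fraction, at 6.14, 5.75 and 6.30 (0.36 over the mean of arrays 1 and 2), and Melk, a kinase of proliferating cells, the smallest in the 1:1 negative, at 6.53, 6.86 and 7.10 (0.41). In the 1:1 positive fraction Mad2l1 (5.81, 7.10 and 7.88) and Ccna2 (7.10, 8.07 and 8.87) had steps of 1.42 and 1.29, while the other 36 members had steps of -0.16 to 0.70.

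**Figure D3:**
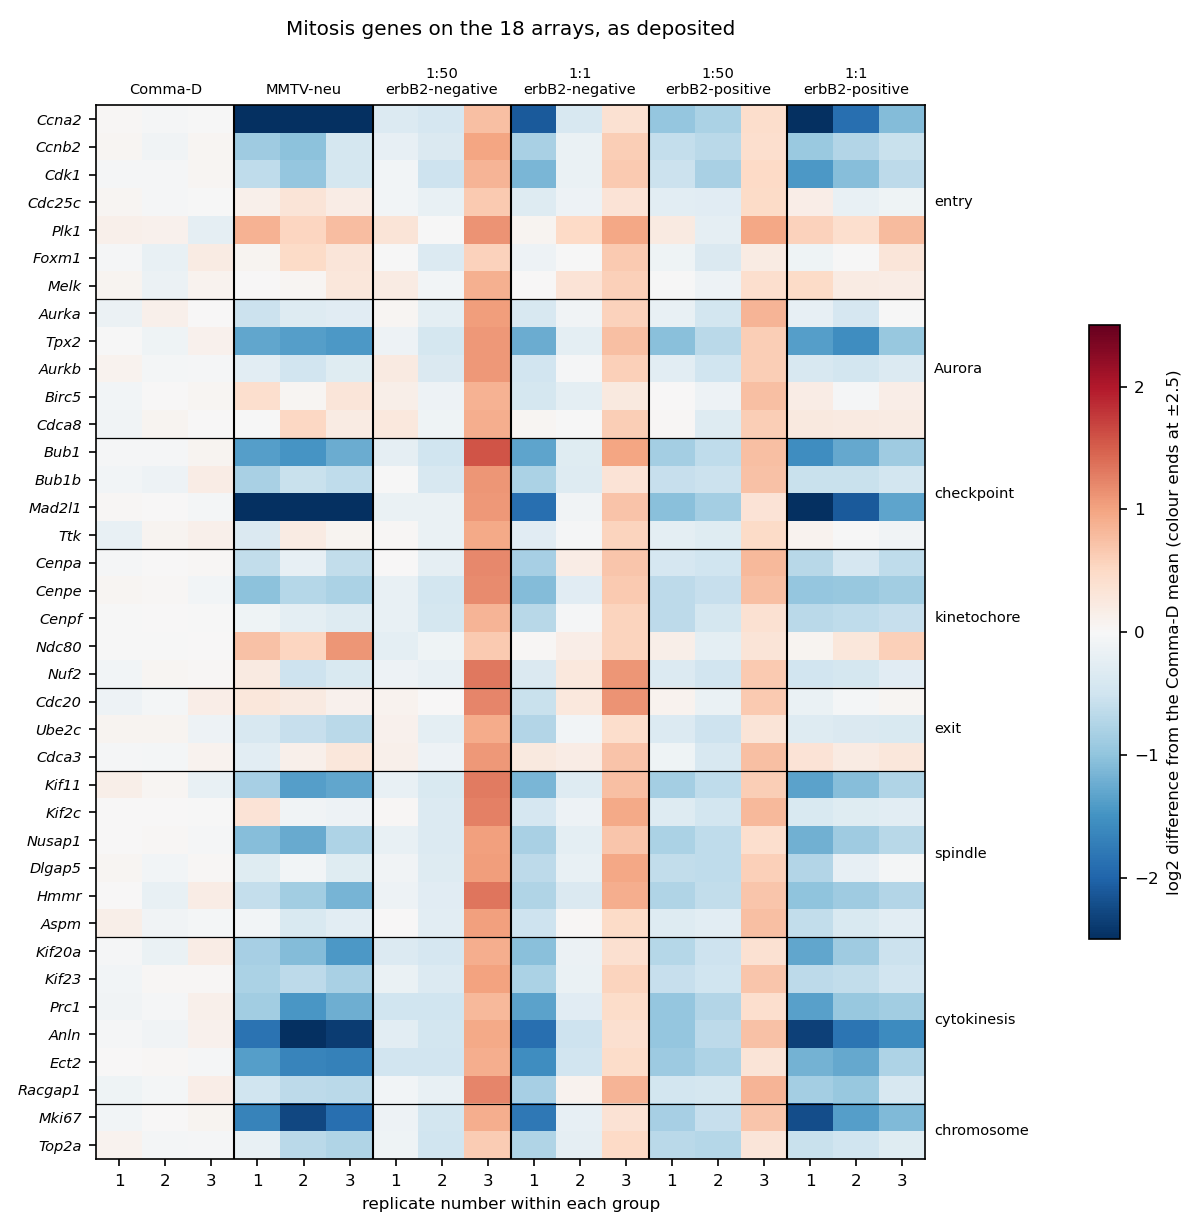
Deposited level of each of the 38 mitosis genes on the 18 arrays as a difference from that gene's Comma-D mean (log2 units, red higher, blue lower, colour ending at 2.5 either way); columns are replicate numbers 1 to 3 within each group and rows are ordered by role. The third column of the 1:50 fractions and of the 1:1 negative fraction is red for nearly all rows, and Ccna2, Mad2l1, Anln and Mki67 are the deepest blue rows in MMTV-neu and the 1:1 positive fraction.

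Set against the Comma-D array of the same number, 38 of 38 mitosis genes were higher on array 3 of both erbB2-negative fractions (median differences 0.97 at 1:50 and 0.57 at 1:1), 37 of 38 on array 3 of the 1:50 positive fraction (0.53) and 7 of 38 on that of the 1:1 positive fraction (-0.53). Of all genes 54.4%, 47.7%, 49.2% and 56.2% were higher on these arrays, in the order 1:50 negative, 1:1 negative, 1:50 positive and 1:1 positive. On arrays 1 and 2 the counts were 15 and 2 of 38 in the 1:50 negative, 3 and 12 in the 1:1 negative, 5 and 1 in the 1:50 positive and 8 and 6 in the 1:1 positive fraction. Between 47% and 60.3% of all genes were higher on those arrays. Thus the mitosis genes of 3 fractions lay mostly under Comma-D on arrays 1 and 2 and above it on array 3. The labels do not say that a number marks a shared culture or day, and these pairs with Comma-D are given as a description.

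The pattern was then tested with an unordered F test of replicate number beside group in the 12 co-culture arrays, a test added after the pattern was seen (limma, adjusted over all genes). It called 33 of 38 mitosis genes, against 9.42% of all genes, and in all 33 array 3 lay above the mean of the other numbers. All genes of the Aurora kinases and their partners (5 of 5), of the spindle (6 of 6), of cytokinesis (6 of 6) and of the chromosomes (2 of 2) were called. The 5 not called were Cenpa, the centromeric histone, Ttk, a checkpoint kinase, Ube2c, Cdc25c, the phosphatase that activates Cdk1, and Melk, with adjusted p of 0.0568 to 0.132. Centred values gave 34 calls (57.4% of all genes), quantile normalization 28 (4.2%), and leaving out the lowest 40% of genes 35 of 36 (22.9%). Leaving out a group at a time gave 28 without the 1:50 negative arrays (19.5% of all genes), 31 without the 1:1 positive (2.76%), 4 without the 1:1 negative (0.301% of all genes) and 0 without the 1:50 positive (0.0301%), so the count rested on those last groups being included.

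The members kept step with each other across these arrays. Over the 12 co-culture arrays the Pearson correlation of each member with the mean of the others ran from 0.556 (Ndc80) to 0.996 (Ccnb2), with Plk1 at 0.722 next to the lowest, and over all 18 arrays from 0.041 (Ndc80) to 0.988 (Kif23). These are descriptions of arrays that share group and number, with n = 12 and 18. After quantile normalization Plk1 was at 0.1 and Ndc80 at 0.893 over the co-culture arrays, so which member stood apart depended on the scaling.

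Other lists were set beside the mitosis genes under the same F test, which called 9.42% of all genes. Of 61 other mitosis genes 37 were called, all with array 3 above, among them the shugoshins Sgo1 (1.23 over the mean of numbers 1 and 2) and Sgo2a (1.00), the kinetochore scaffold Knl1 (1.10) and the condensin subunits Smc2 (0.99) and Smc4 (0.96). Of 38 DNA replication genes 13 were called, all above, led by Pcna (0.84), Pole (0.83), the catalytic subunit of a leading-strand polymerase, and Uhrf1 (0.82), which maintains DNA methylation. Of 22 G1 and E2F genes 2 were called, Rbl1 (0.59) and Cdc25a (0.32). Of 16 CDK inhibitors and p53 targets 6 were called, 5 of them above, among them Btg2 (0.79) and Mdm2 (0.54), and of the 9 reference genes 3 were called, all above (Pgk1 0.43, Sdha 0.38, Hprt 0.32). The median step of array 3 in the 1:50 negative fraction was 1.23 for the 38 mitosis genes, 0.93 for the other mitosis genes, 0.66 for DNA replication, 0.14 for G1 and E2F and 0.02 for CDK inhibitors and p53 targets. In the 1:1 negative fraction it was 1.06 for the 38 genes, 0.68 for the other mitosis genes, 0.43 for replication, 0.38 for G1 and E2F, 0.12 for CDK inhibitors and p53 targets and 0.375 for the reference genes. In the 1:1 positive fraction the reference genes had a median step of 0.48, above the 0.25 of the mitosis genes. When centred, the other mitosis, replication and G1 and E2F genes kept positive medians in the 1:50 fractions and the 1:1 negative fraction and turned to -0.31, -0.35 and -0.36 in the 1:1 positive fraction, and the CDK inhibitors and p53 targets turned to -0.04 in the 1:50 negative fraction.

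Markers of cell type also differed by number under this F test, which called 9.42% of all genes. Of 14 basal and myoepithelial markers 9 were called, with array 3 above for the oxytocin receptor Oxtr (1.13), Mme (0.72), Cnn1 (0.63) and Tagln (0.44) and below for Trp63 (-0.92), Krt5 (-0.59), Krt17 (-0.38), Myh11 (-0.31) and Snai2 (-0.21). Of 10 fibroblast markers 4 were called, namely Pdgfra (-0.85), Dcn (-0.29), Col1a1 (-0.093) and Pdgfrb (-0.064). The test is unordered, so a call need not come from array 3. Pdgfrb stood higher on array 3 than on the mean of arrays 1 and 2 in the 1:1 negative (0.098) and 1:1 positive (0.363) fractions. The mean level of the fibroblast markers was lowest on array 3 in every group. On arrays 1, 2 and 3 it was 7.70, 7.72 and 7.31 in the 1:50 negative and 7.61, 7.66 and 7.41 in the 1:1 negative fraction. It was 7.59, 7.65 and 7.45 in the 1:50 positive and 7.22, 7.40 and 7.18 in the 1:1 positive fraction. In Comma-D it was 8.09, 8.12 and 8.05, and in MMTV-neu 6.96, 6.88 and 6.86. Of 13 luminal markers 1 was called (Esr1, -0.30), of 10 leukocyte markers 0 and of 8 endothelial markers 1. The part of these differences in the step of the mitosis genes was not tested.

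**Figure D4:**
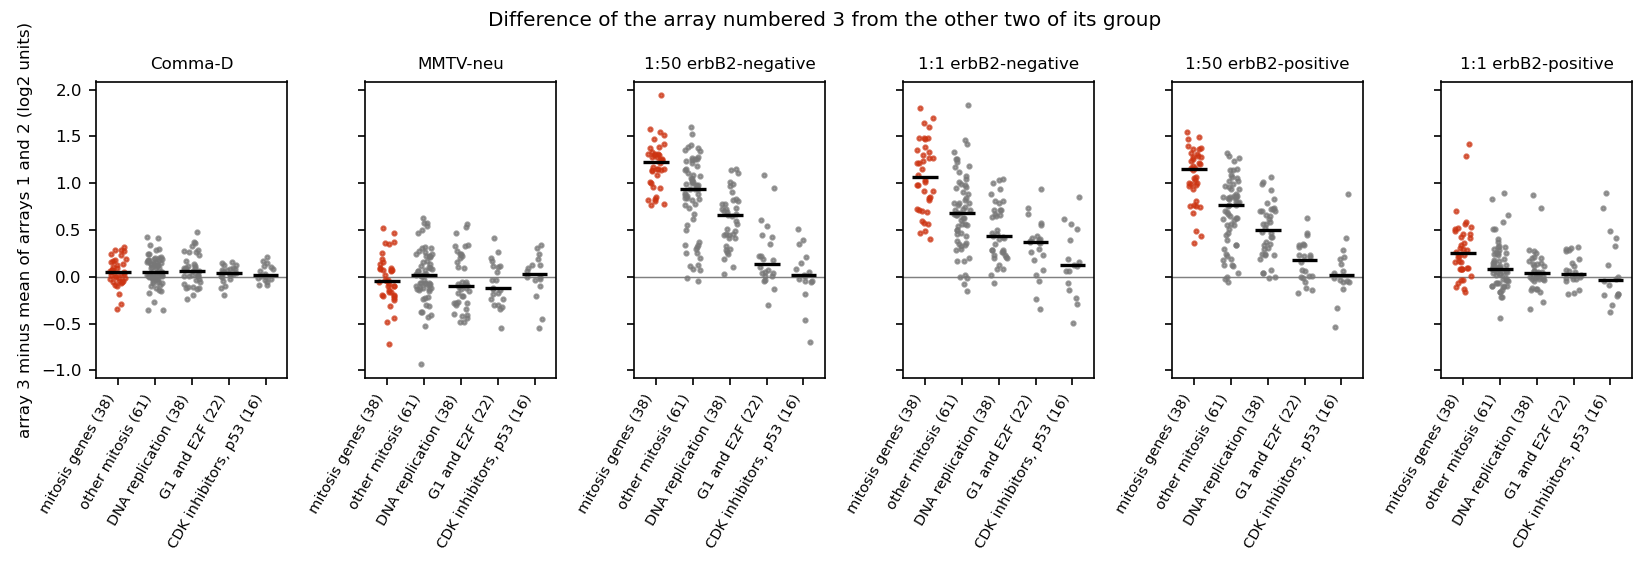
Level on the array numbered 3 minus the mean of arrays 1 and 2 (log2 units, vertical axis, as deposited) in each of the 6 groups, for the 38 mitosis genes (red) and 4 other cell cycle lists (grey); points are genes and bars are medians. The mitosis genes lie at medians of 1.23, 1.06 and 1.15 in the 1:50 negative, 1:1 negative and 1:50 positive fractions, above the medians of the other lists, and at 0.25 in the 1:1 positive fraction, where the median is -0.14 if arrays are centred on reference genes.

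The erbB2-positive fractions were compared with the lines because they are labelled redirected at 1:50 and cancer at 1:1. In the 1:50 positive fraction 7 of 38 mitosis genes were higher and 1 lower than in MMTV-neu (83.4% of all genes passed, 25.8% as higher and 57.6% as lower), with a median of 0.42 against -0.40 over all genes. Mad2l1 stood at 8.15, 8.34 and 9.54 against 5.83, 5.24 and 4.81 and rose by 3.38 (SE 0.58, limma adjusted p = 5.52e-05). Ccna2 stood at 8.99, 9.16 and 10.39 against 6.99, 6.96 and 7.07 and rose by 2.51 (SE 0.53, adjusted p = 0.000348). For both genes every array of the fraction lay above every MMTV-neu array, and these were the 2 members that kept direction and call under all 3 scalings.

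Anln (1.95), Mki67 (1.72), Ect2 (1.12), Tpx2 (1.01) and the kinesin Kif20a (0.84) were also higher in the 1:50 positive fraction than in MMTV-neu, and Ndc80 was lower by 0.71. Cdk1 (0.40, adjusted p = 0.362), Aurkb (0.30, adjusted p = 0.383), Cdc20 (-0.02), Foxm1 (-0.37) and Plk1 (-0.40) did not pass. Centring gave 2 higher and 23 lower with a median of -0.75, where 90.8% of all genes were called, 9.18% of them as higher, with a median of -1.57. Quantile normalization gave 13 higher and 2 lower with a median of 0.38, where 60.5% of all genes were called with a median of -0.11. Without the co-culture arrays numbered 3 the counts were 7 higher and 7 lower with a median of 0.04. There 78.7% of all genes were called, 30.5% of them as higher, with a median of -0.392. Leaving out single arrays gave 5 calls without MMTV-neu array 2 or array 3 and 13 without array 1 of the fraction.

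Against Comma-D, no mitosis gene passed in the 1:50 positive fraction (limma; 0 of 38 also at an unadjusted p under 0.05), while 5.71% of all genes did, and none passed under centring, quantile normalization or a replicate block. The median difference was -0.14, and -0.51, -0.51 and 0.53 for the pairs numbered 1, 2 and 3. Mki67 differed by -0.23 (95% interval -1.25 to 0.79) and Mad2l1 by -0.52 (-1.74 to 0.71), intervals that hold changes of more than 0.7 log2 units in either direction. Cdk1 (-0.28), Plk1 (0.32), Aurkb (-0.05), Foxm1 (-0.08) and Cdc20 (0.19) had adjusted p of 0.545 to 0.949. Without the co-culture arrays numbered 3, 2 members were lower and the median was -0.54, where 3.34% of all genes were called.

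In the 1:1 positive fraction 12 of 38 mitosis genes were lower than in Comma-D and 0 higher, where 78.3% of all genes passed, 45.8% as higher and 32.5% as lower. Mad2l1 stood at 5.81, 7.10 and 7.88 and fell by 2.26 (SE 0.58, limma adjusted p = 0.00199). Ccna2 stood at 7.10, 8.07 and 8.87 and fell by 1.95, Anln stood at 6.62, 7.14 and 7.39 and fell by 1.91, and Mki67 stood at 6.93, 7.76 and 8.04 and fell by 1.56. All 3 arrays of the fraction lay below all Comma-D arrays for each of these 4 genes. Cdk1 fell by 1.05 (adjusted p = 0.0255), as did Tpx2, Bub1, Ect2, Prc1, Kif11, Nusap1 and Kif20a by 0.91 to 1.30, while Aurkb (-0.40), Cdc20 (-0.05), Foxm1 (0.06) and Plk1 (0.60) did not pass.

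Among those 12, Mad2l1 and Anln kept direction and call under all 3 scalings, and centring gave 18 higher and 3 lower with a median of 0.53, against -0.55 as deposited and -0.38 after quantile normalization. Of all genes 86.1% were called when centred, 87.8% of them as higher, with a median of 1.27, so the members still lay below the median of all genes. The count was 5 or 6 without any single Comma-D array and 5 without array 1 or 2 of the fraction. Without the co-culture arrays numbered 3 it was 24 lower and 1 higher, where 75.3% of all genes were called, 6251 of 19938 as lower. Against MMTV-neu 0 of 38 passed, while 18.3% of all genes did; 2 had an unadjusted p under 0.05, and Mad2l1 was nearest, at 1.63 (95% interval 0.41 to 2.86, adjusted p = 0.0591). Mki67 differed by 0.39 (-0.63 to 1.40), Cdk1 by -0.37, Cdc20 by -0.26, Foxm1 by -0.23, Plk1 by -0.13 and Aurkb by -0.05. Quantile normalization called 1 member there, centring 5 and trend and robust priors 1, and leaving out array 1 of the fraction called 1.

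The 1:50 and 1:1 positive fractions were then compared directly, within replicate numbers as well, since equal numbers were taken to pair the co-culture arrays. As deposited, 4 of 38 mitosis genes were higher at 1:50 and 0 lower, where 71.4% of all genes passed, 27.4% as higher and 44% as lower. They were Mad2l1 (1.75, SE 0.58, limma adjusted p = 0.0133), Anln (1.62, adjusted p = 0.00802), Ccna2 (1.5, adjusted p = 0.0178) and Mki67 (1.33, adjusted p = 0.021), each higher in 3 of 3 pairs. Aurkb (0.35, adjusted p = 0.321), Cdc20 (0.24), Foxm1 (-0.14) and Plk1 (-0.28) did not pass. When the number entered as a block and the 12 co-culture arrays alone were fitted, 16 members were higher and 0 lower (77.8% of all genes passed), among them Bub1 (1.00, SE 0.29), Tpx2 (0.93), Cdk1 (0.77, adjusted p = 0.013), Kif11 (0.75), Racgap1, a partner of Ect2 (0.72), and the kinetochore motor Cenpe (0.77).

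That difference was not even over the pairs. Its median over the members was 0.20 for number 1, 0.04 for number 2 and 1.00 for number 3, with 28, 20 and 36 of 38 members higher at 1:50. Of all genes 34.4%, 39.5% and 40.5% were higher at 1:50 in these pairs. Without array 3 of the 1:50 positive fraction no member passed, and without array 1 of the 1:1 positive fraction 1 did. Without all co-culture arrays numbered 3 the counts were 6 higher and 3 lower, where 60.9% of all genes were called, 39.3% of them as higher. Centring gave 1 higher and 13 lower with a median of -0.42, where 84.1% of all genes were called, 10.8% of them as higher, with a median of -1.03. Quantile normalization gave 4 higher and 1 lower with a median of 0.34, where 47.6% of all genes were called. Mad2l1 alone kept its call under all 3 scalings, at 0.91 centred and 1.57 after quantile normalization.

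The erbB2-negative fractions, labelled normal, were compared with Comma-D and with each other. Against Comma-D no mitosis gene passed at 1:50 (limma; 0 at an unadjusted p under 0.05, with 1.68% of all genes called) or at 1:1 (0 likewise, with 35.7% of all genes called), and at 1:1 quantile normalization called 1, centring 7 as higher and the fit without array 3 of that fraction 2 as lower. The medians were 0.24 and -0.09. At 1:50, 35 of 38 differences lay above 0, and 35 were above 0 under all 3 scalings, but the pairs numbered 1, 2 and 3 had medians of -0.10, -0.28 and 0.97, so only the pair numbered 3 had a median above 0. The median over all genes was 0.0168 at 1:50, and 53.3%, 52% and 54.4% of all genes were higher in these pairs. Mki67 differed by 0.11 (95% interval -0.91 to 1.12), Cdk1 by 0.08, Plk1 by 0.48, Aurkb by 0.31, Foxm1 by 0.07 and Cdc20 by 0.44 at 1:50, and by -0.54 (-1.56 to 0.47), -0.22, 0.51, 0.03, 0.17 and 0.27 in that order at 1:1. Without the co-culture arrays numbered 3, the medians were -0.19 and -0.41, and 14 members were lower than in Comma-D at 1:1. There 41.6% of all genes were called, 4665 of 19938 as lower.

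Between the negative fractions no member passed (30.3% of all genes did, 0 members at an unadjusted p under 0.05), and the median was 0.29, with 34 of 38 differences above 0 as deposited. Over all genes the median was -0.0352. The pairs did not have one direction, with medians of 0.63, -0.20 and 0.37 and 36, 3 and 37 of 38 members higher at 1:50. Of all genes 45.1%, 47.2% and 55.9% were higher at 1:50 in these pairs. Mki67 differed by 0.65 (95% interval -0.37 to 1.67), Cdk1 by 0.30, Aurkb by 0.28, Cdc20 by 0.18, Plk1 by -0.03 and Foxm1 by -0.10. With the number as a block in the co-culture arrays 2 members were higher at 1:50 (47.3% of all genes passed), Anln (0.74, limma adjusted p = 0.0472) and Birc5, survivin, of the chromosomal passenger complex (0.45, adjusted p = 0.0357), with 5 at an unadjusted p under 0.05. Without array 3 of the 1:1 negative fraction 2 members passed, and centring turned the median to -0.11. Array 1 of the 1:1 negative fraction was low for these genes: Ccna2 stood at 7.85, 9.56 and 10.35 there, Mad2l1 at 7.32, 9.11 and 9.91 and Anln at 7.09, 8.45 and 9.37. The same array had the lowest mean of the basal markers in its group (8.84, against 9.32 and 9.21) and the narrowest spread over all genes (1.49), and their part in its low values was not tested.

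In the 1:50 co-culture, the positive fraction lay below the negative fraction of the same number for most mitosis genes. There the mean difference was below 0 for 38 of 38 members, from -0.77 (Mad2l1) to -0.03 (Ndc80), with a median of -0.35 against 0.00 over all genes, and 34 were lower in all 3 pairs, against 31.2% of all genes. The medians of the 3 pairs were -0.43, -0.21 and -0.41. Mad2l1 stood at 8.15, 8.34 and 9.54 in the positive and 9.03, 9.03 and 10.27 in the negative fraction, lower in each pair, although the groups overlap as sets. Mki67 differed by -0.34 (95% interval -1.35 to 0.68), Cdk1 by -0.37, Aurkb by -0.36, Cdc20 by -0.25, Plk1 by -0.16 and Foxm1 by -0.15. No member passed (limma; 0 at an unadjusted p under 0.05, and 0.01% of all genes called), none passed with the number as a block, where 3 had an unadjusted p under 0.05 (Mad2l1, Kif11 and Nusap1), and none passed under centring or quantile normalization. The differences stayed below 0 under all 3 scalings for 31 of 38, with medians of -0.13 centred and -0.18 after quantile normalization.

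At 1:1 the difference between the fractions was wider and less even. As deposited, 2 of 38 members were lower in the positive fraction and 0 higher, where 56.1% of all genes passed, 35.2% as higher and 21% as lower. Mad2l1 stood at 5.81, 7.10 and 7.88 against 7.32, 9.11 and 9.91 and fell by 1.85 (SE 0.58, limma adjusted p = 0.0138), and Anln stood at 6.62, 7.14 and 7.39 against 7.09, 8.45 and 9.37 and fell by 1.25 (SE 0.49, adjusted p = 0.0402). Both were lower in 3 of 3 pairs, although their highest positive arrays lay above the lowest negative array. Mki67 (-1.02, adjusted p = 0.0801), Cdk1 (-0.83), Aurkb (-0.43), Cdc20 (-0.32), Foxm1 (-0.11) and Plk1 (0.09) did not pass. With the number as a block in the co-culture arrays 17 members were lower and 0 higher (65.8% of all genes passed), with Ccna2 at -1.24 (adjusted p = 0.00277), Tpx2 at -1.05, Bub1 at -1.03, Mki67 at -1.02 and Cdk1 at -0.83.

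The pairs differed here too, with medians of 0.03, -0.49 and -1.09 for numbers 1, 2 and 3 and 17, 32 and 37 of 38 members lower. Of all genes 67.1%, 62.5% and 60.2% were higher in the positive fraction in these pairs. Without array 1 of the 1:1 negative fraction 20 members were lower, and without array 2 or 3 of that fraction or array 1 of the positive fraction 0 passed, and 1 without array 2 of the positive fraction. Centring gave 8 higher and 1 lower with a median of 0.17, where 81.5% of all genes were called, 91.8% of them as higher, with a median of 0.829. Quantile normalization gave 0 higher and 3 lower with a median of -0.37, where 37.6% of all genes were called; Mad2l1 was lower under all 3, at -1.18 and -1.75. Beside these values, 9 of 14 basal and myoepithelial markers were lower and 1 higher, 5 of 10 leukocyte markers were higher and 1 lower, and 5 of 9 reference genes were lower and 1 higher in the positive fraction. The mean of the endothelial markers was 5.925 to 6.09 in the positive and 5.44 to 5.86 in the negative fraction. That of the adipocyte markers was 5.85 to 6.12 and 5.38 to 5.76. In the lowest quartile of mean level the median difference over all genes was 0.22.

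**Figure D5:**
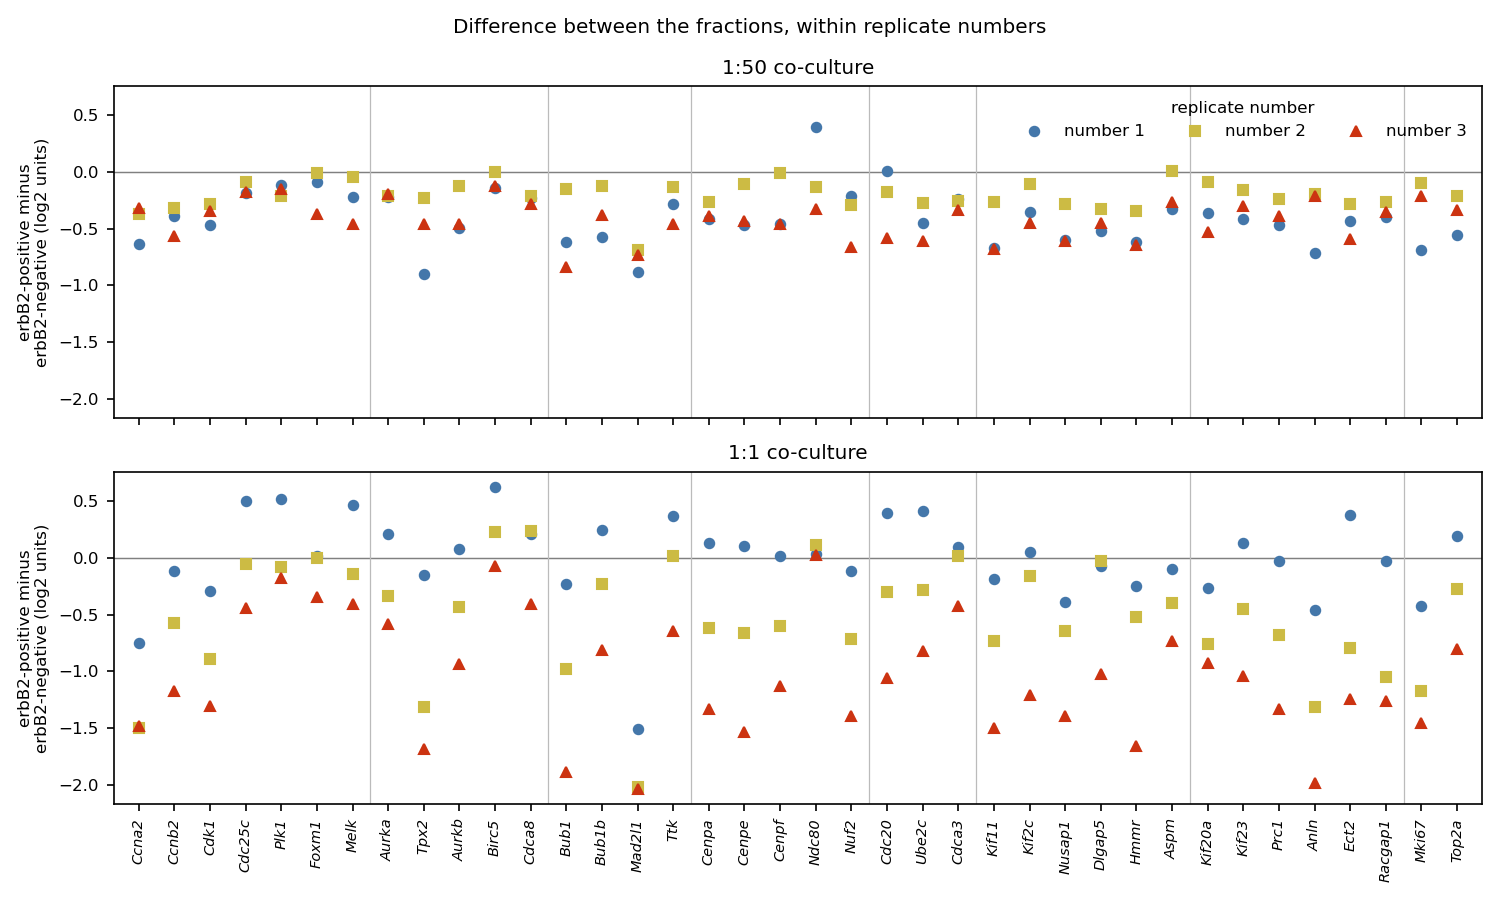
Difference of the erbB2-positive minus the erbB2-negative fraction of the same replicate number (log2 units, vertical axis, as deposited) for each of the 38 mitosis genes, ordered by role, at 1:50 (top) and 1:1 (bottom). At 1:50 nearly all points lie below 0, with medians of -0.43, -0.21 and -0.41, and at 1:1 the pairs spread apart, with medians of 0.03, -0.49 and -1.09; centring on reference genes turns the median at 1:1 to 0.17.

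Whether the effect of the ratio differed between the fractions was tested as an interaction. No mitosis gene passed (limma; 0 at an unadjusted p under 0.05), against 2.75% of all genes, and with the number as a block in the co-culture arrays 0 passed (12.4% of all genes did) and 2 had an unadjusted p under 0.05. Mad2l1 had the largest value, at 1.08 (95% interval -0.65 to 2.82, adjusted p = 0.395), Mki67 was at 0.68 (-0.76 to 2.12), Cdk1 at 0.46, Aurkb and Cdc20 at 0.07, Foxm1 at -0.04 and Plk1 at -0.25, so intervals of this width do not settle whether the ratio acted alike on both fractions. Among the other cell cycle genes the interaction was called for Zwint (1.30), Anapc1, a subunit of the anaphase-promoting complex (1.02), the cyclin Ccnd2 (1.37) and Mdm2 (1.35), the ubiquitin ligase of p53.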

How the data were processed

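RNA from 18 samples of sorted or unmixed mouse mammary cells was measured on mouse gene arrays. The authors deposited log2 values and used RMA, R 3.1.2 and limma, per the submitters' processing notes. Beyond the name RMA, how probe sets were summarised and whether they were filtered is not given in the sources used here. Of 35556 probe sets, 21789 have a single gene in the platform annotation, 1621 have several and were left out, and 12146 are unnamed here. Each of 19938 genes was represented by the single-gene probe set with the highest mean, with no filter on low values. The table held 0 columns of other samples. Precision is limited by the number of arrays.

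The 6 groups were fitted together (lmFit and eBayes of limma 3.58.1, run under R 4.3.3, with 12 residual degrees of freedom), with two-sided tests and Benjamini-Hochberg adjustment over all genes at 0.05. Intervals are 95%. Scripts were tested on simulated data. Alternatives were centring on reference genes (9 of 11 measured), quantile normalization, leaving out the lowest 40% of genes, trend and robust priors, a replicate block, the compared groups alone, a threshold of 0.01 and each array left out. A block in the 12 co-culture arrays, leaving out the arrays numbered 3 or the 1:1 arrays numbered 1, and the F test of number were added after seeing the data. The members and all lists were chosen with earlier results of these data known.

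Replicate numbers come from the sample titles. Deviations of same-numbered co-culture arrays from their group means correlated at 0.0737 to 0.849, over 0.1 in 17 of 18 pairs and in every pair of the comparisons made. The own number was the best match in 15 of 18. Array 2 of the 1:50 positive and of the 1:1 negative fraction correlated at 0.148 and 0.218 with array 2 of the 1:1 positive fraction. Both correlated more highly with array 3 of that fraction. Array 3 of the 1:1 negative fraction correlated at 0.57 with array 3 of the 1:50 positive fraction, and more highly with array 2 of the 1:50 positive fraction. Numbers were taken to pair the co-culture arrays, although the labels do not state a pairing. With an unmixed line 2 of 27 pairs were over 0.1 and 4 under -0.1, so numbers were not taken to pair those arrays. By the rule for named genes, test values are given for Mki67, Cdk1, Plk1, Aurkb, Foxm1 and Cdc20 in every comparison fitted and for the members and other cell cycle genes with the largest called differences; further members are named beside them after their values were seen. Promoter windows are from RefSeq tables of GRCm38.p6, searched for exact letters on both strands.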

Additional observations from a re-analysis of the deposited data

How the results depend on the processing

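Centring on reference genes adds one constant to every gene of an array, so that shift is shared with genes at large and is not about the mitosis genes. The turns of sign below are those of the members, since the medians over all genes kept their sign in these comparisons. Centring turned the median member difference to 0.88 (MMTV-neu minus Comma-D), -0.75 (1:50 positive minus MMTV-neu), -0.30 (1:1 positive minus MMTV-neu), 0.53 (1:1 positive minus Comma-D), -0.42 (1:50 minus 1:1 positive) and 0.17 (1:1 positive minus negative). There the medians over all genes went from 0.40, -0.396, -0.153, 0.186, -0.19 and 0.157 to 1.82, -1.57, -0.487, 1.27, -1.03 and 0.829. Centring also turned the member medians for the 1:50 positive and 1:1 negative fractions against Comma-D to 0.10 and 0.32, that between the negative fractions to -0.11 and that of the interaction to -0.27. Cdk1 was turned to 0.74, -0.78 and 0.040 and Aurkb to 1.08, -0.88 and 0.69 between the lines, for 1:50 positive minus MMTV-neu and for 1:1 positive minus Comma-D, Cdc20 to 1.04 for 1:1 positive minus Comma-D and to -0.60 between the positive fractions, and Foxm1 to 0.56 between the 1:1 fractions. Calls when centred were 28, 25, 5, 21, 14 and 9 in that order and 7 for the 1:1 negative fraction against Comma-D, while 91%, 90.8%, 46.2%, 86.1%, 84.1%, 81.5% and 45.4% of all genes were called. Quantile normalization gave 15 calls for 1:50 positive against MMTV-neu and 1 each for 1:1 positive against MMTV-neu and 1:1 negative against Comma-D. With only the compared groups fitted, 25 were called between the lines, 23 lower and 2 higher, where 85.3% of all genes were called, 6092 of 19938 as lower. For 1:1 positive against Comma-D 31 were called, 26 lower and 5 higher, where 80.8% of all genes were called, 6777 as lower. Between the 1:1 fractions 0 were called, against 34.6% of all genes. The cause of these changes in count was not tested. At an adjusted p under 0.01 calls were 8 between the lines, 5 and 4 for the 1:50 positive fraction against MMTV-neu and the 1:1 positive against Comma-D, 1 between the positive fractions and 0 between the 1:1 fractions. The share of all genes at that threshold is not given here. Trend and robust priors called 1 for 1:1 positive against MMTV-neu and 4 between the 1:1 fractions, and leaving out the lowest 40% of genes 4 in the latter.

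The replicate block over 18 arrays gave 14 calls for 1:50 positive against MMTV-neu, 2 for 1:1 positive against MMTV-neu, 10 between the positive and 11 between the 1:1 fractions. Of all genes 84.2%, 22.9%, 73% and 59.4% were called in that order. In the 12 co-culture arrays, where the numbers were taken to pair the arrays, the block gave 16 calls between the positive and 17 between the 1:1 fractions (77.8% and 65.8% of all genes). There 2 were called between the negative fractions (47.3% of all genes). The block gave 0 calls in the other comparisons without calls. Without the co-culture arrays numbered 3 the calls were 14 for 1:50 positive against MMTV-neu, 2 for it against Comma-D, 25 and 14 for the 1:1 positive and negative fractions against Comma-D and 9 between the positive fractions. Of all genes 78.7%, 3.34%, 75.3%, 41.6% and 60.9% were called in that order. Without the 1:1 arrays numbered 1 the calls were 2 for 1:1 positive against MMTV-neu (31.1% of all genes) and 11 between the 1:1 fractions (57.6%). For single arrays left out, the shares of all genes are not given here. Leaving out each array gave 9 to 12 calls between the lines, 5 to 13 for 1:50 positive against MMTV-neu, 0 to 1 and 5 to 12 for 1:1 positive against MMTV-neu and Comma-D, 0 to 5 between the positive fractions, 0 to 2 for 1:1 negative against Comma-D, 0 to 2 between the negative and 0 to 20 between the 1:1 fractions, and 0 in the other comparisons. The F test of number called 4 without the 1:1 negative and 0 without the 1:50 positive arrays. With 3 arrays a group, a difference whose 95% interval holds 0 was not distinguished from 0.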

Other observations

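Outside mitosis, other cell cycle genes also differed between the co-culture fractions, in counts to be read against the share of all genes called. In the 1:1 positive fraction against the 1:1 negative fraction, where 56.1% of all genes passed, 35.2% as higher and 21% as lower, 9 of 22 genes of G1 and the E2F pathway were lower and 3 higher (limma, adjusted over all genes): the cyclin Ccnd2 fell by 1.66, Rb1, the retinoblastoma protein, fell by 1.22, and E2f2 and Mybl2 rose by 0.75 and 0.58. Of 16 CDK inhibitors and p53 targets 9 were lower and 3 higher, with Btg2 falling by 1.57, Mdm2 by 1.47 and Ccng1 by 1.41, and Cdkn1c rising by 0.63. Of 38 DNA replication genes 5 were lower, Pcna by 1.31 among them, and 1, the helicase factor Cdc45, was higher (0.48). Centring adds 0.67 to each of these differences and turned none of the named genes.

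Between the 1:50 and 1:1 negative fractions, where no mitosis gene passed and 30.3% of all genes did, 70.7% of them as higher, 7 of 22 genes of G1 and the E2F pathway were higher at 1:50 and 2 lower: Rb1 rose by 1.11 and the kinase Cdk6 by 0.93, and Mybl2 fell by 1.37 and E2f2 by 0.78. Mybl2 was also lower at 1:50 than at 1:1 in the positive fractions (-1.32), and it differed between array 3 and the mean of arrays 1 and 2 by 0.22, 0.07, -0.17 and 0.19 in the 1:50 negative, 1:1 negative, 1:50 positive and 1:1 positive fractions.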
